A study of Mus musculus with 2 samples.

Results

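The miRNAs described here are 9 mature strands from 6 hairpins that are used as markers of white blood cells, measured in mouse liver by small RNA sequencing. They were chosen by name from the 281 mature miRNAs in the deposited table, and all 9 were found. They were grouped into 4 classes: pan-leukocyte (mmu-miR-142a-5p and mmu-miR-142a-3p), myeloid (mmu-miR-223-5p and mmu-miR-223-3p), lymphoid (mmu-miR-150-5p, mmu-miR-342-5p and mmu-miR-342-3p) and activation-linked (mmu-miR-155-5p and mmu-miR-146b-5p). The species prefix is left off below. The groups were wild type and DICER1 mutant, the latter a mouse model of DICER1 syndrome, each with 1 liver library from the C57BL/6 background at 3 months of age. The table's headers call the mutant hDICER1_Mut. The sources used here state neither the allele, the promoter that drives it, nor whether the mutant liver held a tumour, although the series' design text speaks of liver cancer. The deposited RPM values (reads scaled to a common library total) imply depths of 11432192 reads for the wild type and 18480608 for the mutant. With 1 library per genotype no test was possible, no p-value is given, and genotype cannot be told apart from animal, tissue piece or library. Every interval below is a 95% interval that covers counting error only.

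White blood cells reach the liver through the blood, and the organ also holds resident macrophages (Kupffer cells), natural killer cells and T cells. A few miRNAs are made almost only in cells of the blood-forming lineage, so in whole tissue they report how much leukocyte RNA a sample contains, and which kinds. miR-155, miR-146b and miR-342 are less restricted than miR-142 and miR-223 and are also made in other cells. In bulk tissue a larger number of such cells and more of a miRNA per cell cannot be told apart. Each miRNA hairpin is cut by the enzyme Dicer into a strand from its 5′ side (5p) and a strand from its 3′ side (3p). One of them is usually kept in Argonaute, where its seed, bases 2 to 8, pairs with target mRNAs, and the other is mostly degraded.

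The mature sequences show which targets the strands could pair with and that the group is no seed family. They come from RefSeq on GRCm38.p6, which gave 8 of the 9 strands, and are written 5′ to 3′ with the seed in capitals. miR-150-5p is named only.
miR-142a-5p: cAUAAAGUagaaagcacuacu
miR-142a-3p: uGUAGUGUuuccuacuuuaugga
miR-223-5p: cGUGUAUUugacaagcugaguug
miR-223-3p: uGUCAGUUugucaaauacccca
miR-342-5p: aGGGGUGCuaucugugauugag
miR-342-3p: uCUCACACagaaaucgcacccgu
miR-155-5p: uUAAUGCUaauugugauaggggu
miR-146b-5p: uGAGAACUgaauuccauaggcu
The 8 seeds all differ from one another. Among mouse mature miRNAs in RefSeq, 7 of them occur in no other name, and that of miR-146b-5p recurs in 1, miR-146a-5p, which is not analysed here. No other miRNA of the deposited table that has a RefSeq sequence carried any of the 8 seeds. The strands are 21 to 23 bases long, so their RPM values need no correction for length, although capture in the library can differ between sequences.

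Both strands were listed for 3 hairpins, which are shown whole, with both mature strands in capitals, because the 5p to 3p comparison rests on them.
Mir142: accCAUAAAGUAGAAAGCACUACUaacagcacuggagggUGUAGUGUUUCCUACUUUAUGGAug
Mir223: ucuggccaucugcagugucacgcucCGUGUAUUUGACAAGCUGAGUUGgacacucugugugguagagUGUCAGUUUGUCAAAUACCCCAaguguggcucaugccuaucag
Mir342: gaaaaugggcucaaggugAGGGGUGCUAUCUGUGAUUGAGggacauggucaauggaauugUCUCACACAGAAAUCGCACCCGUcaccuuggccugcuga
The mature strands are separated by 15 bases in Mir142, 19 in Mir223 and 20 in Mir342. All 6 hairpins lie on the plus strand of GRCm38 (mm10), as annotated by GENCODE M21, on 6 chromosomes. Mir142 (chr11:87756864-87756927) lies in an intron of the noncoding host gene Mir142hg, and Mir142b is annotated opposite to it on the minus strand. The sources used here do not state how counting treated that overlap. Mir223 (chrX:96242817-96242926) overlaps an exon of the noncoding gene F630028O10Rik, and Mir150 (chr7:45121757-45121821) overlaps no other annotated gene. Mir342 (chr12:108658620-108658718) lies in an intron of Evl, which encodes an actin regulator. Mir155 (chr16:84714140-84714204) lies in an exon of its host gene Mir155hg, and Mir146b (chr19:46342762-46342870) in an intron of Mfsd13a.

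The first comparison asked how the level of each strand differed between the wild-type and the mutant liver. All 9 strands had a higher RPM in the mutant, by 4.78-fold to 15.9-fold. By RPM each was at least 2-fold higher with an interval that excluded equality, against 62.0% of the 276 listed miRNAs whose reads over both libraries came to at least 10, and none was 2-fold lower, against 7.25%. The table lists only miRNAs that differed at least 2-fold on the authors' own scale, on which ratios are 2.38 times smaller than by RPM, so a strand that differed little would not be among the members. The median log2 RPM ratio of the members was 2.99, against 2.74 for all 276 and 3.63 for the 171 that were higher. Of these 171, 123 had an RPM ratio above the members' median of 7.97. The members therefore lay mostly in the lower part of the listed miRNAs with a higher RPM. Taken as a sum, they held 0.192% of wild-type reads (interval 0.190 to 0.195) and 1.05% of mutant reads (interval 1.04 to 1.05), 5.45 times as much (interval 5.38 to 5.53).

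**Figure D1:**
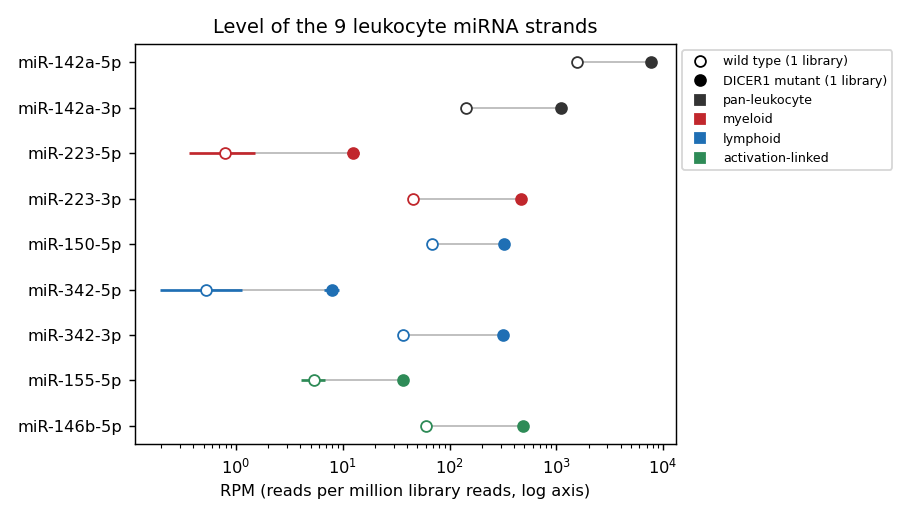
Level of each strand in RPM (log axis) in the wild-type library (open circles) and the DICER1 mutant library (filled circles), with 95% Clopper-Pearson counting intervals, coloured by class. Every strand is higher in the mutant, and miR-142a-5p, at 1562 and 7725 RPM, is the highest in both libraries.

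miR-142a is made throughout the blood lineage and hardly outside it, and it supplied most of the reads. miR-142a-5p had 17856 reads, or 1562 RPM, in wild-type liver against 142767 reads, or 7725 RPM, in mutant liver, a ratio of 4.95 (interval 4.87 to 5.02). It ranked 21 among the 276 listed miRNAs by level in the wild type and 14 in the mutant. Its partner miR-142a-3p had 1627 reads (142 RPM) and 20546 reads (1112 RPM), a ratio of 7.81 (interval 7.43 to 8.22). Of all reads of the 9 strands, miR-142a-5p took 81.3% in the wild type (interval 80.7 to 81.8) and 73.7% in the mutant (interval 73.5 to 73.9). Its part of the total was thus smaller in the mutant, by more than the counting error, although its level was higher.

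miR-223 is the classic miRNA of neutrophils and monocytes, where it restrains inflammatory activity. The main strand, miR-223-3p, had 523 reads (45.7 RPM) in wild-type liver against 8546 reads (462 RPM) in mutant liver. Its ratio of 10.1 (interval 9.25 to 11.1) was the highest of the members with more than 10 wild-type reads. The minor strand miR-223-5p had 9 reads (0.787 RPM) against 232 reads (12.6 RPM), and so few wild-type reads left its ratio of 15.9 with an interval of 8.26 to 35.3. Among the members' reads the myeloid class made up 2.42% (interval 2.22 to 2.63) in the wild type and 4.53% (interval 4.44 to 4.63) in the mutant.

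miR-150 is abundant in mature B and T lymphocytes and natural killer cells and represses the transcription factor Myb. miR-150-5p had 778 reads (68.1 RPM) in wild-type liver against 6010 reads (325 RPM) in mutant liver, a ratio of 4.78 (interval 4.43 to 5.16). This was the lowest RPM ratio of all 171 listed miRNAs with a higher level, so the strand stood at the edge of what the table holds. In the authors' deposited table its fold is 2.004. miR-342, hosted by Evl, is expressed in lymphocytes and also in other leukocytes, and is placed here with the lymphoid class. miR-342-3p had 421 reads (36.8 RPM) against 5868 reads (318 RPM), a ratio of 8.62 (interval 7.81 to 9.54), and miR-342-5p had 6 reads (0.525 RPM) against 146 reads (7.90 RPM), a ratio of 15.1 (interval 6.75 to 41.7). The lymphoid class was therefore not uniform: the reads of miR-342-3p per read of miR-150-5p were 1.80 times as many in the mutant as in the wild type (interval 1.59 to 2.04).

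miR-155 is induced when lymphocytes and macrophages are activated, and miR-146b is induced by inflammatory signals and belongs to a family that damps them through Traf6 and Irak1. miR-155-5p was rare, with 61 reads (5.34 RPM) in wild-type liver against 676 reads (36.6 RPM) in mutant liver, a ratio of 6.86 (interval 5.27 to 9.06). miR-146b-5p had 692 reads (60.5 RPM) and 8915 reads (482 RPM), a ratio of 7.97 (interval 7.38 to 8.62). The intervals of these RPM ratios overlap. The quotient of miR-146b-5p to miR-155-5p changed by a factor of 1.17, with an interval of 0.891 to 1.54 that includes equality.

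The order of the levels differed between the libraries. In the wild type it ran from miR-142a-5p through miR-142a-3p, miR-150-5p, miR-146b-5p, miR-223-3p, miR-342-3p, miR-155-5p and miR-223-5p to miR-342-5p. Of these neighbours only miR-223-5p and miR-342-5p, at 9 and 6 reads, did not differ beyond counting error. In the mutant, miR-150-5p came after miR-146b-5p and miR-223-3p and was level with miR-342-3p, with a quotient of 1.02 (interval 0.988 to 1.06). The other neighbours in the mutant differed beyond counting error.

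**Figure D2:**
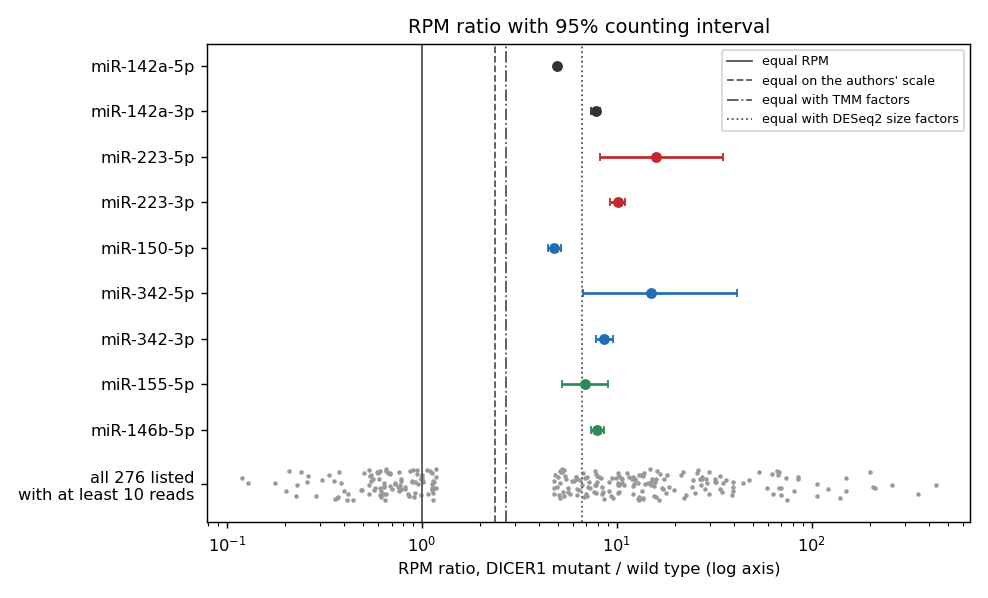
RPM ratio of the mutant to the wild type (log axis) for each strand with its 95% counting interval, and for all 276 listed miRNAs with at least 10 reads (grey points, spread vertically for view). Vertical lines mark equality by RPM, in the authors' values and by TMM and DESeq2 factors. All 9 strands lie to the right of equality by RPM, by TMM factors and in the authors' values, whereas miR-142a-5p and miR-150-5p lie left of the line for DESeq2 size factors.

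How much higher the strands were depended on the scaling of the 2 libraries. On the authors' scale, taken as RPM times their library factors, all 9 strands were at least 2-fold higher (62.0% of the 276 were). Their ratios ran from 2.004 for miR-150-5p to 6.69 for miR-223-5p, whose fold in the authors' deposited table is 6.66. Listing itself required a difference of at least 2-fold by the authors' values, so the count of 9 was fixed for strands listed as higher. With TMM factors, which edgeR derived from the table's rows, 7 stayed at least 2-fold higher (55.1% of the 276 did). The ratios of miR-142a-5p and miR-150-5p were then 1.82 and 1.76. With DESeq2 size factors, which set the median listed miRNA near equality, only miR-223-5p and miR-342-5p did (27.2% of the 276), whereas the ratios of miR-150-5p and miR-142a-5p dropped below equality, to 0.722 and 0.748. The log2 ratio of the members' sum, 2.45 by RPM, was then -0.28. Both sets of factors depend on which miRNAs were listed, and they shifted every log2 ratio by -1.44 (TMM) and -2.73 (DESeq2), against -1.25 for the authors' values.

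The second comparison took the strands relative to one another, which removes the scaling of the libraries. Set against miR-142a-5p, 7 of the other 8 strands were relatively more abundant in the mutant with an interval that excluded equality, and miR-150-5p was not. By RPM ratio this reference stood at position 5 from the lowest of the 171 miRNAs listed as higher. The listing therefore nearly fixed this count, which says little about the members. Per 100 reads of miR-142a-5p there were 2.93 reads of miR-223-3p in the wild type and 5.99 in the mutant, a factor of 2.04 (interval 1.87 to 2.23). For miR-342-3p the number went from 2.36 to 4.11, a factor of 1.74 (interval 1.58 to 1.92). For miR-146b-5p it went from 3.88 to 6.24, a factor of 1.61 (interval 1.49 to 1.74), and for miR-155-5p from 0.342 to 0.473, a factor of 1.38 (interval 1.06 to 1.79). For miR-150-5p it was 4.36 and 4.21, a factor of 0.966 (interval 0.895 to 1.04). The largest factors, 3.06 for miR-223-5p and 2.82 for miR-342-5p, had wide intervals of 1.60 to 5.86 and 1.28 to 6.19.

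**Figure D3:**
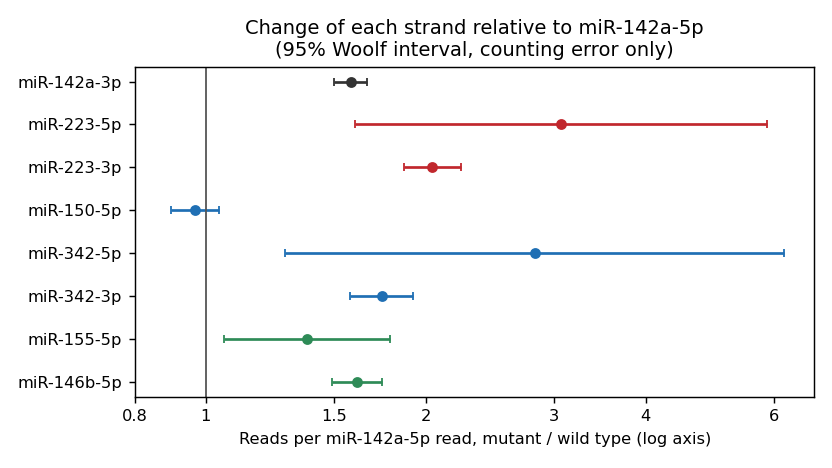
Change between the libraries in the number of reads of each strand per read of miR-142a-5p (log axis, mutant divided by wild type), with 95% Woolf intervals. miR-150-5p, at 0.966, is the only strand whose interval includes 1, and miR-223-3p, at 2.04, is the highest of the well-counted strands. The reference strand stood near the low edge of the miRNAs listed as higher.

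Between classes, the myeloid sum per read of both miR-142a strands was 1.97 times as large in the mutant as in the wild type (interval 1.80 to 2.15), the activation-linked sum 1.52 times (interval 1.41 to 1.64) and the lymphoid sum 1.19 times (interval 1.12 to 1.26). Most reads of this reference were miR-142a-5p, near the low edge of the listing, so a factor above 1 says little about a class. The main myeloid strand, miR-223-3p, stood at position 63 from the lowest of the 171 miRNAs listed as higher. The quotient of lymphoid to myeloid reads was 2.27 in the wild type and 1.37 in the mutant, a factor of 0.605 (interval 0.544 to 0.672). All 6 pairs of classes had intervals that excluded equality, and so did 20 of the 36 pairs of single strands. The lymphoid value rested on miR-342: with miR-150-5p alone, the log2 change relative to miR-142a was -0.12, against 0.25 for the whole class. The choice of reference strand mattered as well. Set against miR-142a-3p alone, the log2 value was 0.38 for the myeloid, 0.012 for the activation-linked and -0.34 for the lymphoid class. The myeloid class thus stayed above and the lymphoid class came to lie below the reference strand. With either reference strand the order of the classes was the same, with myeloid first and lymphoid last, since the reference does not enter into it. The last place of the lymphoid class came with miR-150-5p, whose factor relative to miR-142a-5p was 0.966. The factor of miR-342-3p, 1.74, was above those of miR-146b-5p (1.61) and miR-155-5p (1.38). The quotients of these 2 strands to miR-342-3p had intervals that included equality (0.816 to 1.05 and 0.598 to 1.04).

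The third comparison took the strands of each hairpin. The labels say that reads were classed by arm, and the Dicer domain that cuts the 5p strand (RNase IIIb) is distinct from the one that cuts the 3p strand (RNase IIIa). In miR-142a the 3p strand was relatively more abundant in the mutant: the 5p strand had 91.6% of the hairpin's reads in the wild type (interval 91.3 to 92.0) and 87.4% in the mutant (interval 87.3 to 87.6), a log2 odds ratio of 5p to 3p of -0.66 (interval -0.74 to -0.58). In miR-223 the 5p strand had 1.69% in the wild type (interval 0.776 to 3.19) and 2.64% in the mutant (interval 2.32 to 3.00), a log2 odds ratio of 0.58 with an interval of -0.36 to 1.53. In miR-342 it had 1.41% (interval 0.517 to 3.03) and 2.43% (interval 2.05 to 2.85), a log2 odds ratio of 0.69 with an interval of -0.45 to 1.84. A shift of arm in miR-223 and miR-342 was thus not detectable at this depth.

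In all 3 hairpins the rarer strand had the larger RPM ratio, though for miR-223 and miR-342 this rested on 9 and 6 wild-type reads. With a pseudocount of 1 RPM the order turned in both, to a log2 ratio of 2.92 for miR-223-5p against 3.31 for miR-223-3p, and of 2.55 for miR-342-5p against 3.07 for miR-342-3p. The table holds 62 hairpin names with both arms listed and at least 10 reads in each arm. Loci of 1 name were pooled, some names share reads (miR-199a and miR-199b have the same 3p counts), and each arm had to pass the authors' 2-fold limit. The rarer strand, judged by the reads of both libraries together, was relatively more abundant in the mutant in 29 of them, or 46.8%. This was by the odds ratio with 0.5 added to each count. A strand that was rarer only in the wild type, as the 3p strands of miR-1247 and miR-154, was counted as the commoner. That can only lower the count, and the count by wild-type reads alone was not calculated. The quotient of 5p to 3p was lower in the mutant in 50 of these 62, with a median log2 odds ratio of -0.53. In the order from the lowest to the highest log2 odds ratio, miR-142a stood at position 30, and miR-223 and miR-342, whose intervals include 0, at positions 57 and 58. Rare strands were also listed at small folds in the authors' deposited table. miR-200b-5p, with 6 wild-type reads, had a fold of 2.62, against 6.66 for miR-223-5p and 6.27 for miR-342-5p. The opposite strands of miR-150, miR-155 and miR-146b are not analysed here.

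**Figure D4:**
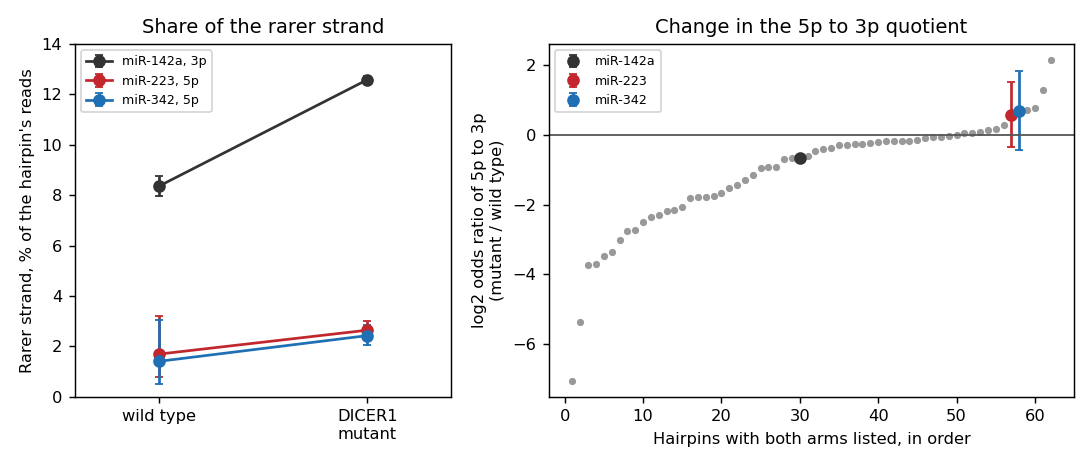
Left: share of the rarer strand among the reads of its hairpin in each library (%), with 95% Clopper-Pearson intervals, which rises from 8.35% to 12.6% for miR-142a-3p and whose intervals overlap between libraries for miR-223-5p and miR-342-5p. Right: log2 odds ratio of 5p to 3p (mutant against wild type) for the 62 hairpin names with both arms listed, in order, with 95% Woolf intervals for the 3 named hairpins.

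Other miRNAs linked to leukocytes were taken from a list of 17 further hairpins, of which 11 had listed strands, 14 in all. Of these 14, 12 were at least 2-fold higher by RPM and 2 lay within 2-fold, with a median log2 ratio of 3.25. The share of all 276 listed miRNAs that were higher was 62.0%, as above. The lymphoid part of this list came from the miR-181 family, which sets the sensitivity of T-cell receptor signalling and is also made in many other tissues. From miR-181a and miR-181c only 3p strands were listed, so miR-181a-5p and miR-181c-5p do not enter the values below. All 6 listed strands of the family were higher, with a sum of 159 RPM (wild type) and 2017 RPM (mutant), a ratio of 12.7 (interval 12.1 to 13.3). This was larger than the ratio of 4.78 (interval 4.42 to 5.17) for the sum of the 4 listed myeloid strands, the reverse of the order among the members. That myeloid sum, 62.9 RPM (wild type) and 301 RPM (mutant), was mostly miR-652-3p, at 55.0 and 264 RPM. The deposited fold of miR-652-3p is 2.01, at the edge of the listing, so the reversed order rested on this strand. The highest of the miR-181 family were miR-181c-3p, at 14.8 and 501 RPM (ratio 33.9), and miR-181a-2-3p, at 24.1 and 716 RPM (ratio 29.8). miR-181b-2-3p had a ratio of 22.7 from 3 wild-type reads, with an interval that began at 7.56, and miR-181d-5p had a ratio of 9.10. miR-181b-5p, at 83.1 and 514 RPM, and miR-181a-1-3p, at 18.5 and 112 RPM, had ratios of 6.18 and 6.03, nearer to the members, which became 0.935 and 0.912 with DESeq2 size factors.

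In the myeloid part, miR-511-5p, made from an intron of the macrophage mannose receptor gene Mrc1, had 65 reads (5.69 RPM) in wild-type liver against 105 reads (5.68 RPM) in mutant liver. Its RPM ratio of 0.999 (interval 0.727 to 1.38) stood apart from that of miR-223-3p, and in the authors' deposited table it has a signed fold of -2.38. miR-652-3p, at 55.0 and 264 RPM, had a ratio of 4.79 (interval 4.41 to 5.22), and miR-125a-3p, at 2.01 and 27.3 RPM, a ratio of 13.6. miR-147-3p, which is induced by Toll-like receptor signals in macrophages, had 2 wild-type reads against 71, a ratio of 22.0 with an interval that began at 5.86. In the activation-linked part, miR-212-3p, at 4.64 and 47.3 RPM, had a ratio of 10.2, miR-212-5p 10.3 and miR-132-5p 6.47. The abundant miR-21a-5p, which many cell types make, had 30328 and 34401 RPM, so that its RPM ratio was 1.13, while the authors' deposited table gives -2.10 as its signed fold.

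Markers of other cell types moved between the same 2 libraries. The 8 listed hepatocyte strands summed to 407602 RPM (wild type) and 164056 RPM (mutant), a 2.48-fold lower sum, and 3 of the 8 were at least 2-fold lower, against 7.25% of the 276. The defining hepatocyte miRNA, miR-122-5p, by which the liver label was checked, was present in both, at 14951 and 7303 RPM. The 6 listed mesenchymal strands, from miR-199 and miR-214, were all higher (62.0% of the 276 were), summing to 966 and 12339 RPM with identical rows counted once, a ratio of 12.8 (interval 12.5 to 13.0). miR-199a-3p, the most abundant, had 813 and 10396 RPM. Of 11 biliary and epithelial strands 8 were higher by RPM (62.0% of the 276 were) and 3 within 2-fold, and their sum went from 2105 to 5910 RPM. miR-203-3p, the most abundant over both libraries, was 1.56-fold lower, at 1491 and 956 RPM. The 8 higher strands, of the miR-200 family and miR-205, had ratios of 6.29 to 107 and summed to 164 and 4457 RPM, and the most abundant of them in the mutant, miR-200b-3p, had 56.9 and 1637 RPM. The part of these cell types in the members' values was not tested. No strand of the erythroid hairpins (miR-451a, miR-144, miR-486) or of the platelet and endothelial miR-126a was listed, and these are not analysed here.

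**Figure D5:**
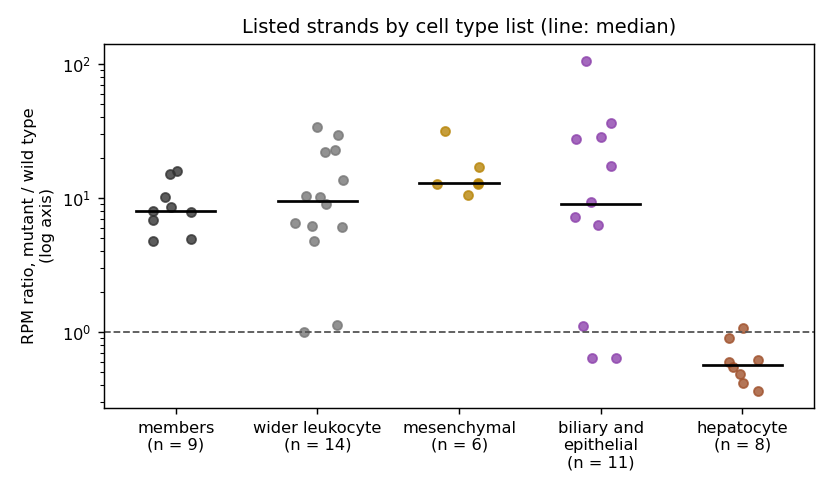
RPM ratio of the mutant to the wild type (log axis) for each listed strand of the 9 members, the wider leukocyte list and the mesenchymal, biliary and epithelial, and hepatocyte lists. Points are strands and horizontal lines medians. The members lie between 4.78 and 15.9, all 6 mesenchymal strands above 10 and all 8 hepatocyte strands at or below 1.08.

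Set against the mesenchymal strands, the members were relatively fewer in the mutant. There were 199 member reads per 100 mesenchymal reads in the wild type and 84.9 in the mutant, a factor of 0.427 (interval 0.417 to 0.437) that does not depend on the scaling. Set against the hepatocyte strands they were relatively more, at 0.472 and 6.39 reads per 100, a factor of 13.5 (interval 13.4 to 13.7). Most hepatocyte reads were those of miR-192-5p, the list's most reduced strand, and the factor without it was not calculated. Against the biliary and epithelial strands the factor was 1.94 (interval 1.90 to 1.98), which rested on miR-203 and miR-31. Without these, a choice made after their values were seen, it was 0.201 (interval 0.191 to 0.211), so the members were relatively fewer than the other 8 strands.

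For the most abundant strand of each of the 6 hairpins, the nearest of the 272 other listed miRNAs by log2 RPM in both libraries was sought. With only 2 libraries this likeness is a description of 2 levels. It gave miR-674-3p for miR-155-5p (5.69 and 35.7 RPM, distance 0.10), miR-301a-3p for miR-146b-5p (53.5 and 506 RPM, distance 0.19) and miR-497a-5p for miR-223-3p (40.9 and 506 RPM, distance 0.21). For miR-150-5p it was miR-15b-5p (73.7 and 390 RPM, distance 0.29), for miR-342-3p miR-541-5p (51.5 and 409 RPM, distance 0.61) and for miR-142a-5p let-7i-5p (964 and 6018 RPM, distance 0.78). None of the nearest miRNAs was on the wider leukocyte list.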

How the data were processed

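The SMARTer smRNA-seq kit was used for the libraries, which were read single-end, and reads were mapped to mm10 and miRBase 22.1, per the labels' protocols. cutadapt is named in the submitters' processing notes. The sources used here do not state how reads matching several miRNAs were counted, nor whether molecular identifiers were used. In 1 table the authors deposited raw read counts per mature miRNA, RPM, log2 normalized values, a signed fold score and p-values. Dividing counts by RPM gave 1 constant per library, taken as its total. The deposited log2 values equal log2 of 1 plus RPM times a library factor, 1.46 for the wild type and 0.611 for the mutant, whose derivation is not given. The authors' p-values come from 1 library per genotype and were not used. The table holds part of each library, namely 81.8% of wild-type and 61.2% of mutant reads.

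RPM ratios have exact conditional binomial (Clopper-Pearson) intervals. Log2 ratios had 0.5 reads, in proportion to library size, added as a pseudocount. A strand was called higher or lower at 2-fold or more with an interval excluding equality, among 276 miRNAs with at least 10 reads, leaving out 5. Log2 odds ratios between strands had 0.5 added to each count and Woolf intervals. Counts of 3 reads correspond to 0.262 RPM (wild type) and 0.162 RPM (mutant). PCR copies are not independent molecules. Factors came from edgeR 4.0.16 and DESeq2 1.42.0, with no test. Calculations were tested on simulated counts. Named miRNAs were the members, listed strands of the leukocyte lists, the most abundant strand of each other list and the nearest miRNA by level. Any further names were picked with their values in view. Members and lists were chosen with earlier results of these data known.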

Additional observations from a re-analysis of the deposited data

How the results depend on the processing

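Scaling moved every level ratio by a common amount. The members' median log2 ratio was 1.74 on the authors' scale, 3.41 with the sum of listed counts, 1.55 with TMM factors, 0.27 using DESeq2 size factors, 2.41 when totals left out the most abundant miRNAs (miR-192-5p and miR-22-3p), and 2.88 with 1 strand per hairpin. The log2 ratio of their summed share, 2.45 by RPM, was 1.19, 2.87, 1.004, -0.28 and 1.86 under the same 5 scalings in that order. With DESeq2 size factors 2 of 9 members stayed at least 2-fold higher, miR-150-5p and miR-142a-5p changed direction, to -0.47 and -0.42, and 4 of the 14 wider strands stayed higher, a share close to the 27.2% of all 276. In the authors' values, and equally by TMM or DESeq2 factors, 2 of the 14 wider strands, miR-511-5p and miR-21a-5p, were lower. The authors listed 110 of all 281 miRNAs as lower, and the share that was lower by TMM or DESeq2 factors was not calculated. These changes between scalings come from the scaling itself. Fold limits of 1.5 and 4 and minimums of 0 and 100 reads could not change the members' count, since no listed higher miRNA has an RPM ratio under 4.78 and each member has at least 152 reads. With a pseudocount of 1 RPM the log2 ratio was 2.92 for miR-223-5p and 2.55 for miR-342-5p, against 3.94 and 3.83.

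Relative values do not depend on the scaling. With miR-142a-3p as reference the log2 change was 0.38 for the myeloid, -0.34 for the lymphoid and 0.012 for the activation-linked class. It was -0.12 for the lymphoid class by its most abundant strand, which is also the class without miR-342, and 0.39 for the activation-linked class without miR-146b. With 5 added to each count the log2 odds ratio of 5p to 3p was -0.66 for miR-142a, 0.064 for miR-223 and -0.0062 for miR-342, against 0.58 and 0.69 for the latter pair, so these depend on the few wild-type reads of their 5p strands. The members' log2 change relative to the biliary and epithelial list, 0.96, was -2.32 without miR-203 and miR-31. Leaving out a replicate was not possible with 1 library per genotype. No paired analysis was possible, because the labels give no pairing between the 2 libraries. The wild-type depth limits miR-223-5p and miR-342-5p most, at 9 and 6 reads.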
